A study of Mus musculus with 15 samples.

Results

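This account covers lung microRNAs (miRNAs) of mice without lung injury, compared between wild-type (WT) mice and mice homozygous for R213G, a variant of extracellular superoxide dismutase (EC-SOD). It rests on 7 of the 15 libraries of the study, 4 from R213G mice and 3 from WT mice, all given phosphate-buffered saline (PBS). All mice were of C57BL/6 background, both sexes were used, and which mouse was of which sex is not known from the sources used here. Each received a single intratracheal dose of 100 uL PBS at 8 to 12 weeks of age, and the samples are labelled 11 weeks. Lungs were taken 7 days later, after 10 mL PBS had been flushed through the right ventricle, and total RNA of the whole lung was used. The other 8 libraries, 4 per genotype, came from mice that had received bleomycin at 1 U/mL in the same volume. They enter here only through the shared estimate of the spread and as a separate set of libraries in which the genotypes could be compared. Nothing in the labels says that mice were pooled or that libraries share a mouse, so each library was taken as 1 mouse. Where that does not hold, the p-values measure only the spread between these samples.

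Of 1424 mature miRNAs in the table, 818 (57.4%) had a value above 5 in at least 3 of the 15 libraries and were tested. Values are log2 of 1 plus a scaled abundance, so that a difference of 1 is a doubling. No source used here gives the read depth. Tissue was bulk lung, so fewer cells of a type and less RNA per cell cannot be told apart.

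EC-SOD is an antioxidant enzyme that works outside the cell, and it is abundant in lung and vessel walls. It is held to the matrix by a basic tail, and the R213G substitution lies in that tail and lowers matrix binding, so that more of the enzyme circulates in the extracellular fluid. A miRNA is cut from a hairpin precursor, whose 5p and 3p arms can each give a mature strand. The strand that is loaded into Argonaute recognises messenger RNAs mainly through its seed, bases 2 to 8. Members of a family with the same seed can share targets. No mature miRNA reads out the R213G allele itself, which lies in a protein-coding gene, so the genotype labels could not be checked in these data.

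The sequences below belong to the miRNAs that carry the results: the most abundant lung miRNAs, and those with the smallest p between genotypes. They are RefSeq mature sequences (GRCm38.p6), written 5′ to 3′ with the seed in capitals. RefSeq held a sequence for 688 of the 818 tested miRNAs, for 17 of the 20 most abundant and for 7 of the 15 with the smallest p. The abundant miRNAs come first.
miR-26a-5p: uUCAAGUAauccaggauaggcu
miR-10a-5p: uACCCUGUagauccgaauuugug
miR-22-3p: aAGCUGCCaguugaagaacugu
miR-30a-5p: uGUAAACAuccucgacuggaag
miR-27b-3p: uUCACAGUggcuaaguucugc
miR-181a-5p: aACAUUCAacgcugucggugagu
miR-126a-3p: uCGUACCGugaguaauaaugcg
let-7f-5p: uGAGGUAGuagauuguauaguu
let-7a-5p: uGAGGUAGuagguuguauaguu
miR-16-5p: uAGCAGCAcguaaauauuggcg
miR-21a-5p: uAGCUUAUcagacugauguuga

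The 7 available sequences among the 15 miRNAs with the smallest p share no seed with each other.
miR-217-5p: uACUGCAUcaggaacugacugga
miR-96-3p: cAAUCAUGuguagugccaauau
miR-142a-5p: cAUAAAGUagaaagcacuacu
miR-3069-3p: uUGGACACuaaguacugccaca
miR-6939-3p: cCUCACUUgacccgcugcag
miR-326-5p: gGGGGCAGggccuuugugaaggcg
miR-3089-3p: aGCAUCUGcugauccugagcugu

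In GRCm38.p6 miR-142a-5p lies at chr11:87756867-87756887 on the plus strand, in an intron of the long noncoding host gene Mir142hg. miR-217-5p lies at chr11:28763761-28763783 on the plus strand, in an intron of the noncoding gene Gm12082. miR-96-3p lies at chr6:30169465-30169486 on the minus strand, outside any other gene of the GENCODE annotation used. miR-10a-5p lies at chr11:96317186-96317208 on the plus strand, also outside other annotated genes. miR-26a-5p is encoded at both chr9:119031811-119031832 (plus strand, intron of Ctdspl) and chr10:126995543-126995564 (plus strand, intron of Ctdsp2). let-7f-5p is encoded at chr13:48537889-48537910 (minus strand, in an exon of the noncoding gene 6720427I07Rik) and at chrX:151912353-151912374 (plus strand, intron of Huwe1). Reads of such copies cannot be assigned to 1 of them.

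The first question was which miRNAs an uninjured lung holds in these mice. A small number of miRNAs made up most of the measured abundance in both genotypes. Summed linear values per library ranged from 20688470 to 24759620, which are sums of scaled values and not read depths. Between 5 and 6 miRNAs held 50% of a library's sum, between 39 and 46 held 90%, and 712 to 731 miRNAs had a value above 5. The 10 most abundant held 62.6% to 68.3% of a library.

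The most abundant was miR-143-3p, a miRNA of smooth muscle and other mesenchymal cells, with 14.5% of the sum on average and 13.2% to 15.8% in single libraries. It ranked first in each of the 7 libraries. miR-26a-5p, which is widely expressed, followed with a mean share of 9.70%, and miR-10a-5p, encoded in the HoxB cluster, with 9.60%. These 2 exchanged ranks 2 and 3 between libraries, so their order was within the spread. miR-22-3p (7.61%) and miR-30a-5p (6.59%) likewise exchanged ranks 4 and 5. From rank 6 the order was the same in every library down to rank 9, with miR-27b-3p at 5.47%, miR-181a-5p at 3.68%, miR-30d-5p at 3.15% and miR-126a-3p at 2.90%. miR-126a-3p is the miRNA of endothelial cells, which line the lung's capillary bed.

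Ranks 10 to 20 lay closer together. let-7f-5p (2.31%), miR-16-5p (2.06%), miR-126b-3p (1.896%) and miR-126a-5p (1.89%) exchanged places between libraries. They were followed by miR-191-5p (1.38%), let-7c-5p (1.16%), miR-21a-5p (1.14%), miR-30c-5p (0.944%), let-7a-5p (0.902%), miR-92a-3p (0.886%) and miR-26b-5p (0.870%). In all, the 20 held 78.6% of the sum. A pair of entries among them may hold the same reads. miR-126b-3p lies at chr2:26591363-26591385 on the minus strand, within the Mir126a locus of Egfl7 but on the other strand, and its value differed from that of miR-126a-5p by at most 0.0075 (log2) in each of the 7 libraries. No source used here gives the strand setting of the authors' counting, so these entries cannot be told apart. They were the only pair of tested miRNAs that differed by less than 0.01 in all 15 libraries.

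**Figure D1:**
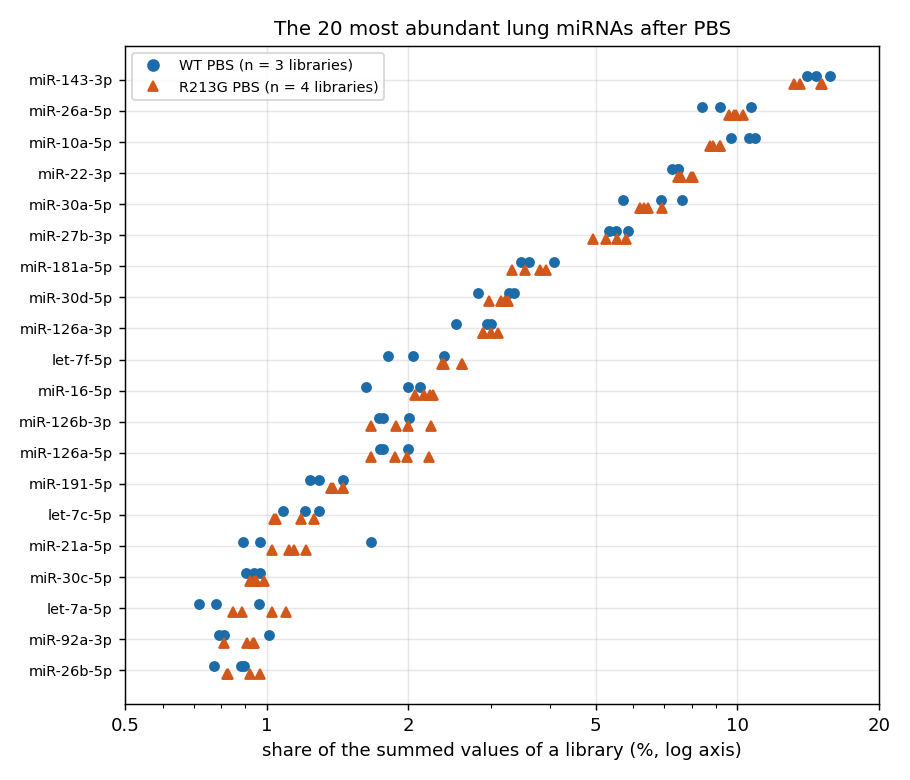
Share of the summed linear values (percent, log axis) of the 20 most abundant miRNAs, ranked by their mean over the 7 PBS libraries; circles are the 3 WT libraries and triangles the 4 R213G libraries. miR-143-3p lies between 13.2% and 15.8% in every library, and 1 WT library stands to the right of the others for miR-21a-5p.

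Sequences were available for miRNAs that hold 75.9% of the sum, which leaves out miR-143-3p. Among these, grouped by seed, the leading families were miR-26 (UCAAGUA, 10.6% of the sum), miR-10 (ACCCUGU, 10.0%) and miR-30 (GUAAACA, 8.07% without miR-30d-5p and miR-30b-5p, which are not in the sequence table). The 5 miR-30 miRNAs of the list used below, those 2 included, held 11.9% ± 1.32 (SD, n = 3) in WT and 11.6% ± 0.40 (SD, n = 4) in R213G. miR-22-3p stood alone with its seed (7.61%), and the 9 let-7 members (GAGGUAG) held 6.20%. The 2 miR-10 members, miR-10a-5p and miR-10b-5p, held 10.9% ± 0.41 (SD, n = 3) of the WT libraries and 9.37% ± 0.30 (SD, n = 4) of the R213G libraries. let-7 held 5.87% ± 0.60 (SD, n = 3) in WT and 6.45% ± 0.34 (SD, n = 4) in R213G.

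The composition as a whole was close between genotypes. The share of the 10 most abundant miRNAs was 66.2% ± 3.19 (SD, n = 3) in WT and 65.0% ± 0.71 (SD, n = 4) in R213G, with an exact two-sided permutation p of 0.40. For the number of miRNAs above 5 the exact p was 0.914, and for the let-7 share it was 0.171. Adjusted over these 3 measures the exact permutation p-values were 0.60, 0.914 and 0.514. With 3 against 4 libraries the smallest p this test can give is 0.0571, so it could not pass 0.05. Across the 818 miRNAs the mean values of the 2 groups had a Spearman rho of 0.993, a description across miRNAs within 2 small sets of libraries.

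Among the libraries, WT PBS replicate 3 stood apart. On the first principal component of all 15 libraries, which set bleomycin apart from PBS, it scored -7.26, against -13.69 to -10.23 for the other 6 PBS libraries. It held the highest value for 7 of the 8 tested striated and cardiac muscle miRNAs and the lowest for the other one, miR-208b-3p. The striated muscle miRNA miR-133a-3p measured 14.19, 13.88 and 16.24 in WT replicates 1 to 3 and 14.81, 14.31, 14.67 and 14.48 in R213G replicates 1 to 4. miR-21a-5p measured 18.39 in WT replicate 3 and 17.75 to 18.01 in the other 6. Medians of miRNA lists that turn without this library are given with and without it. The R213G libraries also fell into pairs, described further on.

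**Figure D2:**
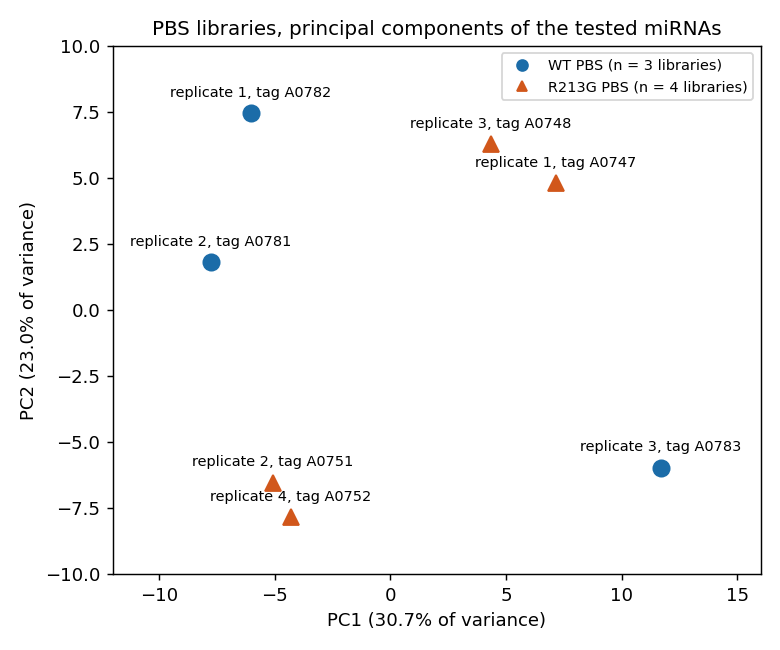
First and second principal component of the 818 tested miRNAs over the 7 PBS libraries (30.7% and 23.0% of the variance); circles are WT and triangles R213G, each with its replicate and tag number from the labels. WT replicate 3 lies at the right edge, and R213G replicates 1 and 3 (tags A0747 and A0748) lie apart from replicates 2 and 4 (tags A0751 and A0752).

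The main question was which miRNAs differ between R213G and WT lungs without injury. No miRNA passed the test: 0 of 818 (percent called 0) had an adjusted p under 0.05 in limma with Benjamini-Hochberg adjustment, and none had one under 0.1. The smallest adjusted p was 0.622. At an unadjusted limma p under 0.05 there were 44 miRNAs (5.38%), 31 higher in R213G (3.79%) and 13 lower (1.59%). In 34 miRNAs (4.16%) all 4 R213G libraries lay above all 3 WT libraries, and in 22 (2.69%) all lay below, which makes 56 without overlap (6.85%). No edgeR or DESeq2 test was run beside it, since the table holds no counts.

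The intervals show how large a difference these libraries leave room for. The median difference was 0.02 and the median size of a difference 0.16 (log2), while the 95% confidence interval reached, in the median, 0.51 to either side. For 570 of the 818 (69.7%) the interval lay inside -1 to 1, and for 250 it lay inside -0.5 to 0.5. Precision followed abundance. Over the 289 miRNAs whose linear mean in the 7 libraries corresponds to log2 8 or more, it reached 0.29 to either side, the median size of a difference 0.08, and the interval lay inside -1 to 1 for 277 and inside -0.5 to 0.5 for 206. None of the 289 differed by 1 or more. The largest difference among them, -0.90, belonged to the muscle miRNA miR-133b-3p, which measured 10.17 in WT replicate 3 and 7.14 to 7.85 in the other 6 libraries. Without that library its difference was 0.00. The 18 miRNAs that differed by 1 or more were therefore all less abundant ones.

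**Figure D3:**
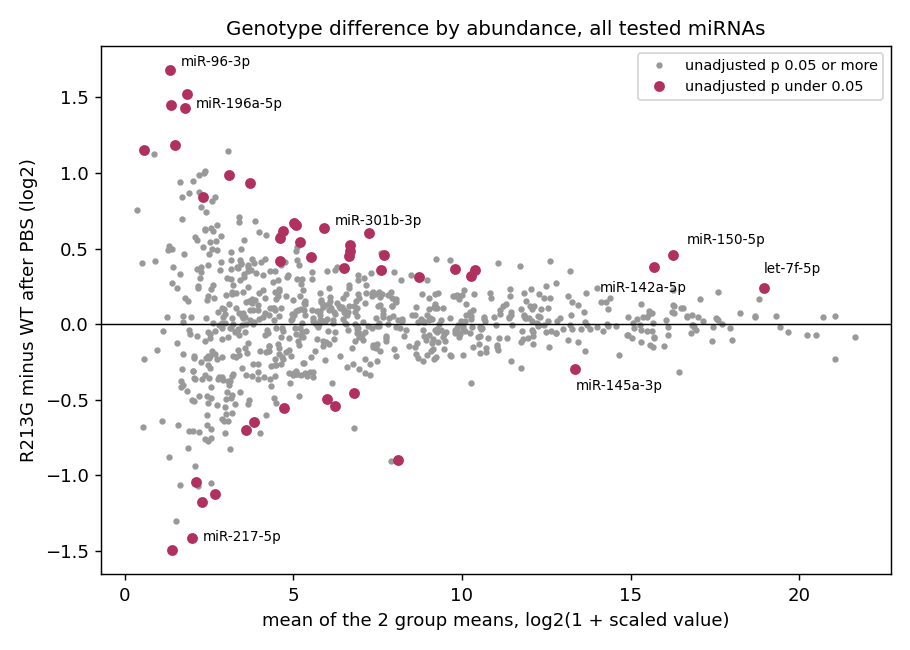
Difference R213G minus WT after PBS (log2) against the mean of the group means, log2(1 + scaled value), for the 818 tested miRNAs; filled red points have an unadjusted limma p under 0.05, and none has an adjusted p under 0.05. The spread widens to the left, where values are low, and the labelled abundant miRNAs differ by less than 0.5.

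The 15 miRNAs with the smallest p, all with an adjusted p of 0.622, were a mix of very low and very abundant species. Among the abundant ones, miR-142a-5p, a miRNA of blood cells of all white lineages, measured 15.59, 15.35 and 15.58 in the WT libraries and 15.75, 16.001, 15.89 and 15.90 in the R213G libraries. The groups did not overlap. The difference was 0.38 ± 0.12 (SE) with limma (unadjusted p = 0.00629, adjusted p = 0.622). miR-150-5p, which mature lymphocytes express, measured 15.82, 16.18 and 16.05 in WT and 16.70, 16.33, 16.53 and 16.32 in R213G, again without overlap. Its difference was 0.46 ± 0.16 (SE) with limma (unadjusted p = 0.0106, adjusted p = 0.622). The less abundant arms of both hairpins gave similar differences: miR-142a-3p differed by 0.42 and miR-150-3p by 0.46, and neither pair of groups overlapped.

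miR-145a-3p, the minor arm of a smooth muscle hairpin, was the only miRNA above log2 8 among the 15 that was lower in R213G. It measured 13.38, 13.57 and 13.59 in WT and 13.20, 13.41, 13.01 and 13.25 in R213G, and 1 R213G library lay within the WT range. The difference was -0.29 ± 0.10 (SE) with limma (unadjusted p = 0.0113, adjusted p = 0.622). The major arm miR-145a-5p differed by -0.15.

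miR-301b-3p, of the miR-130 and miR-301 family, measured 5.60, 5.53 and 5.65 in WT and 6.46, 5.97, 6.37 and 6.13 in R213G. All R213G libraries lay above WT, by 0.63 ± 0.18 (SE) with limma (unadjusted p = 0.00225, adjusted p = 0.622). Of the 15, 4 belong to the miR-466 and miR-467 families, known for many near-identical copies in an intron of Sfmbt2. No sequence or position of these 4 was available here, and whether the counting split or shared their reads was not tested. miR-466g differed by 0.67, miR-467e-5p by 0.49, miR-467c-5p by 0.52 and miR-466b-3p by 0.93, and their groups did not overlap except for miR-466g. Their values are uncertain, since reads of such copies may have been split or shared.

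The other 7 were near the floor of detection. miR-217-5p, known from the pancreas, had the smallest p. It measured 2.34, 2.89 and 2.91 in WT and 1.53, 1.91, 1.04 and 0.70 in R213G, which is a linear mean of 3.3 over the 7 libraries. Its difference was -1.41 ± 0.35 (SE) with limma (unadjusted p = 0.000931, adjusted p = 0.622). The miRNAs miR-216a-5p and miR-216b-5p, which neighbour it on chromosome 11, overlapped between groups and differed by -0.64 and -0.05. miR-96-3p, the minor arm of a sensory and epithelial hairpin, measured 0.06, 0.06 and 1.43 in WT and 1.93, 1.88, 3.05 and 1.95 in R213G. The groups did not overlap, while the abundant arm miR-96-5p differed by -0.21. The remaining 5 were miR-6939-3p (1.52), miR-3079-3p (1.45), miR-3069-3p (0.99), miR-3089-3p (-1.13) and miR-326-5p (-1.50), and the groups overlapped only for miR-3079-3p.

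**Figure D4:**
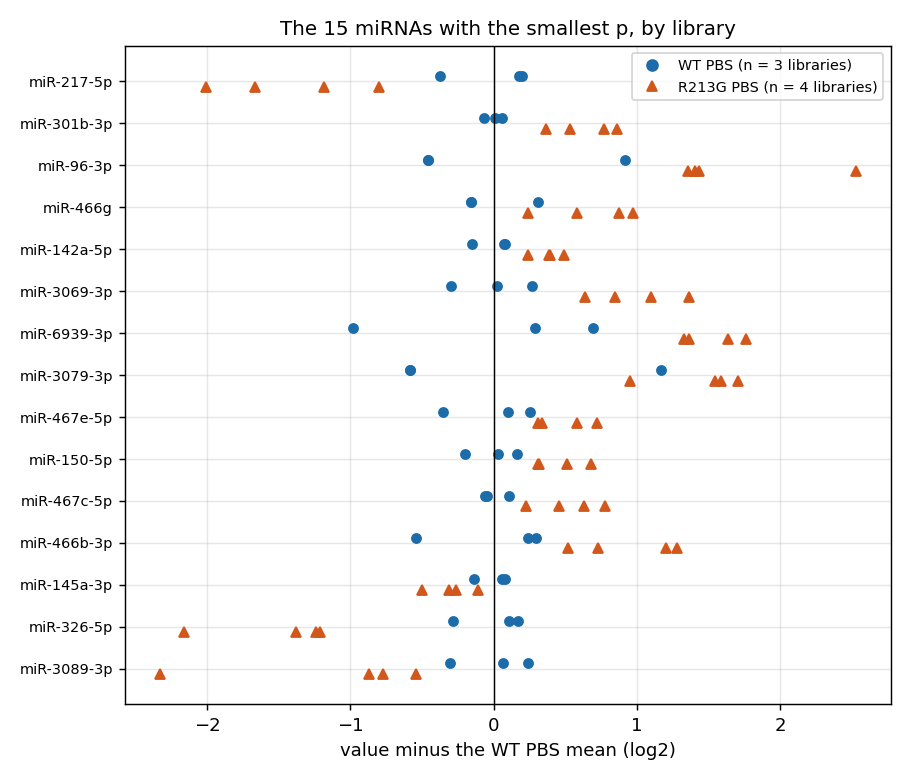
Value of each PBS library minus the WT PBS mean (log2) for the 15 miRNAs with the smallest unadjusted p; circles are the 3 WT libraries and triangles the 4 R213G libraries. All 15 have an adjusted p of 0.622; the WT and R213G libraries overlap for miR-466g, miR-3079-3p and miR-145a-3p.

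Of the 289 more abundant miRNAs, 9 had an unadjusted limma p under 0.05, a smaller share than the 44 (5.38%) of all 818. Beside miR-142a-5p, miR-150-5p and miR-145a-3p these were let-7f-5p, miR-330-3p, miR-208b-3p, miR-132-3p, miR-130b-3p and miR-338-5p. The last 2 and miR-330-3p are named here after their values were seen. let-7f-5p, the most abundant let-7 member, measured 18.83, 18.77 and 18.91 in WT and 19.20, 19.01, 18.98 and 19.13 in R213G. The groups did not overlap and differed by 0.24 ± 0.09 (SE), with an adjusted p of 0.717 in limma. miR-338-5p measured 10.09 in WT replicate 1 and 7.38 to 8.15 in the other 6 libraries.

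Without WT PBS replicate 3, 81 miRNAs had an unadjusted p under 0.05 in limma, 70 higher and 11 lower in R213G, and the smallest adjusted p was 0.162. The number with an adjusted p under 0.05 was again 0. The 15 named miRNAs kept the sign of their difference with any 1 of the 7 libraries left out. They were chosen for a small p in these same libraries, so a kept sign is no separate support.

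Lists of miRNAs with known roles were described by counts and medians, to be read beside the 818 tested, of which 445 were higher and 373 lower in R213G with a median of 0.02. No member of any of the 19 lists had an adjusted p under 0.05 in limma. With 1 library left out, the median of all 818 ranged from -0.01 to 0.07, the latter without WT PBS replicate 3. Lists share members, and 33 of the 154 distinct miRNAs stand in more than 1 list.

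Among miRNAs that mark blood cells, the 6 myeloid entries had a median difference of 0.31, with 4 higher and 2 lower. The median was 0.18 without WT PBS replicate 1 and 0.40 without WT PBS replicate 3. miR-223-3p, the neutrophil and monocyte miRNA, measured 12.30, 12.76 and 12.87 in WT and 13.26, 12.63, 12.79 and 12.98 in R213G. The groups overlapped, and the difference was 0.27 ± 0.16 (SE), with an adjusted p of 0.827 in limma. miR-223-5p differed by 0.36, while the macrophage miRNAs miR-511-3p and miR-511-5p differed by -0.14 and -0.31. The 6 myeloid entries together held 0.265%, 0.216% and 0.305% of the WT libraries and 0.311%, 0.354%, 0.353% and 0.348% of the R213G libraries, mostly through miR-142a-5p. Both arms of miR-142a, a miRNA of all white lineages, are among the 4 higher entries. Neither this share nor the list median therefore marks myeloid cells alone. The lymphocyte list had a median of -0.03 and 2 of 6 members higher, one of them miR-150-5p. Its median was -0.14 without WT PBS replicate 3 and 0.07 without WT PBS replicate 2. In it miR-181c-5p differed by -0.14 and the abundant miR-181a-5p by -0.05.

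Erythroid miRNAs are those of red cells and their precursors. All 7 were higher in R213G, by a median of 0.11, but libraries of 1 genotype differed far more. miR-451a measured 15.20, 14.58 and 15.78 in WT and 15.91, 14.91, 15.95 and 14.11 in R213G, a difference of 0.03 ± 0.47 (SE) with an adjusted p of 0.994 in limma. The median of the list ranged from -0.24 without WT PBS replicate 2 to 0.40 without WT PBS replicate 3, and it was also below 0 without R213G PBS replicate 1 or 3. miR-144-3p differed by 0.43, and the most abundant member, miR-486a-5p, by 0.06.

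Lists of structural cells lay near 0. Of 13 smooth muscle and mesenchymal miRNAs 2 were higher and 11 lower, with a median of -0.12 (-0.06 without WT PBS replicate 3), and they held 27.7%, 26.2% and 26.3% of the WT libraries and 25.1%, 23.3%, 24.2% and 25.5% of the R213G libraries, without overlap. Much of that sum is miR-143-3p, which differed by -0.09, and miR-10a-5p, which differed by -0.23 ± 0.12 (SE) with an adjusted p of 0.827 in limma. miR-10a-5p measured 21.20, 21.36 and 20.94 in WT and 20.96, 20.92, 20.93 and 20.95 in R213G, so WT replicate 3 lay with the R213G libraries. miR-100-5p differed by -0.18. The 9 endothelial miRNAs had a median of 0.03 and 6 higher. Without WT PBS replicate 3 the median was -0.09 with 3 higher, and without WT PBS replicate 2 it was 0.14. miR-126a-3p measured 19.35, 19.50 and 18.99 in WT and 19.27 to 19.40 in R213G, with a difference of 0.05 ± 0.14 (SE). miR-23a-3p differed by 0.09, miR-24-3p by 0.11 and miR-27b-3p by -0.07.

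The 13 epithelial miRNAs had a median of -0.01, with 6 higher and 7 lower, and of 0.05 without WT PBS replicate 2. miR-200c-3p, which helps to keep cells epithelial, measured 13.97, 14.07 and 13.95 in WT and 14.04, 13.99, 13.94 and 13.96 in R213G, a difference of -0.02 ± 0.13 (SE). miR-205-5p, a miRNA of basal cells, differed by 0.40 ± 0.37 (SE), and miR-182-5p, the most abundant epithelial entry, by -0.04. The ciliated cell list (median 0.02, 4 of 7 higher) had a median of -0.12 without WT PBS replicate 1 and of 0.17 without WT PBS replicate 3. It held miR-449b at -1.04, miR-449a-5p at 0.35 and miR-34c-5p at 0.05. Striated and cardiac muscle miRNAs had a median of -0.04 over 8 members, of -0.45 without WT PBS replicate 2 and of 0.37 without WT PBS replicate 3. In that list miR-208b-3p differed by 0.36. The list of miRNAs from other organs had a median of -0.12 with 4 of 15 higher, with -0.46 without WT PBS replicate 1 and 0.11 without WT PBS replicate 3. The liver miRNA miR-122-5p varied within both genotypes, with 8.83, 8.95 and 4.06 in WT and 3.69, 8.95, 6.41 and 8.76 in R213G. In the same list miR-128-3p differed by 0.38 and miR-192-5p by -0.12.

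Lists linked to oxidant and injury biology were of interest because EC-SOD removes superoxide. Of 15 redox and hypoxia miRNAs 13 were higher in R213G and 2 lower, with a median of 0.11 and none at an unadjusted p under 0.05. miR-335-3p differed by 0.24 ± 0.11 (SE), miR-28a-5p by 0.17, and the hypoxia miRNA miR-210-3p by -0.03. NF-kB and inflammation miRNAs had a median of -0.04 with 4 of 12 higher. Without WT PBS replicate 3 the median was 0.15 with 10 of 12 higher, with array weights it was 0.06 with 9 higher, and without WT PBS replicate 1 it was -0.17. There miR-155-5p, a miRNA of activated leukocytes, measured 10.66, 10.81 and 11.59 in WT and 10.99, 10.92, 11.20 and 10.93 in R213G, a difference of -0.01 ± 0.18 (SE). miR-146a-5p, a brake on NF-kB signalling, differed by 0.12 ± 0.17 (SE). miR-132-3p differed by 0.32 and miR-147-3p by -0.69, with WT replicate 3 at 8.84 and the other 6 libraries at 5.94 to 6.82.

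The pro-fibrotic list (median -0.03, 2 of 10 higher) and the anti-fibrotic list (median 0.00, 8 of 16 higher) depended on single libraries. Without WT PBS replicate 3 the pro-fibrotic median was 0.07 with 7 of 10 higher and the anti-fibrotic median -0.08 with 3 of 16 higher. Without WT PBS replicate 1 the pro-fibrotic median was -0.13, and without WT PBS replicate 2 the anti-fibrotic median was 0.08. miR-21a-5p, which is known for its part in fibrosis, differed by -0.03 ± 0.14 (SE), with a 95% interval from -0.33 to 0.27. miR-29b-3p, which targets collagens, differed by -0.10 ± 0.22 (SE), and let-7d-5p by 0.13 ± 0.12 (SE). miR-34a-5p, a p53 target, measured 11.31 to 11.41 in WT and 11.29 to 11.61 in R213G, a difference of 0.04 ± 0.12 (SE). The p53 list had a median of -0.09, of -0.02 without R213G PBS replicate 3, and miR-34a-3p in it differed by -0.52. In the fibrosis lists miR-409-5p differed by -0.55, miR-409-3p by -0.16, miR-326-3p by -0.29 and miR-26a-5p by 0.05.

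In the remaining lists, 7 of 9 let-7 miRNAs were higher in R213G, with a median of 0.13, let-7a-5p among them with 0.21. Without WT PBS replicate 1 the median was 0.05. Of the 12 miRNAs of the miR-17 to miR-92a cluster and its paralogs, linked to proliferation, 10 were higher, with a median of 0.14, led by miR-20b-5p (0.37) and miR-106a-5p (0.35). miR-92a-3p differed by 0.03. The 5 miR-30 miRNAs had a median of -0.02 (-0.15 without WT PBS replicate 3 and 0.09 without WT PBS replicate 2), with miR-30a-5p at -0.07 and miR-30d-5p at -0.02. The HOX cluster list had a median of 0.05, of -0.03 without R213G PBS replicate 3 and 0.18 without WT PBS replicate 3, and its smallest p at miR-196a-5p, which measured 1.19, 1.20 and 0.82 in WT and 3.26, 2.46, 3.22 and 1.07 in R213G. The 8 miRNAs from introns of the serotonin receptor gene Htr2c had a median of 0.20, with 7 higher, among them miR-1264-5p (0.39) and miR-1298-5p (0.21). That median was 0.09 without WT PBS replicate 3. The medians of the myeloid, let-7, miR-17, redox and Htr2c lists were above 0 with any 1 library left out and under each scaling tried. Those of the smooth muscle and p53 lists were below 0 in the same settings. These lists are named here because their medians kept their sign in the same libraries, so this is no separate support. With R213G tags A0747 and A0748 alone the let-7 median was 0.21 and the miR-17 median 0.26. With tags A0751 and A0752 alone the let-7 median was 0.03 and the miR-17 median 0.02. Quantile normalization turned the median of the ciliated cell list to -0.04, of the endothelial list to -0.02 and of the anti-fibrotic list to -0.01, and equal sums turned that of the epithelial list to 0.02 and of the miR-30 list to 0.00.

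The ratio of the 5p to the 3p arm of a hairpin does not depend on the scaling of a library where both arms are abundant. Near the floor it does, because 1 was added to each value before the logarithm. Of 234 hairpins with both arms tested, the 5p arm was the higher in all 7 libraries for 111 and the 3p arm for 100, while 23 were mixed. No ratio differed between genotypes at an adjusted p under 0.05 in limma (percent called 0). The smallest adjusted p was 0.293, and 11 hairpins (4.7%) had an unadjusted p under 0.05. The ratio of miR-449a, a ciliated cell hairpin, was 9.69 in WT and 10.76 in R213G (log2 5p minus 3p), that of miR-96 9.27 and 7.37, and that of miR-301a -6.67 and -7.20. miR-1306, miR-3069 and miR-6955 followed with differences of -0.64, -1.26 and 1.56. The 3p arms of miR-96 and miR-3069 are among the miRNAs near the floor named above, so their ratios carry that limit. With 1 library left out, 1 hairpin passed in each of 2 cases: miR-449a without WT PBS replicate 2 and miR-3069 without R213G PBS replicate 1. For miR-142a and miR-150, named above, the ratio differed by -0.04 and 0.00.

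The genotypes were compared in the same way in the 8 bleomycin libraries, which share no sample with the PBS libraries. There too 0 of 818 had an adjusted p under 0.05 in limma, with 97 (11.9%) at an unadjusted p under 0.05 and a smallest adjusted p of 0.219. The genotype difference after PBS and that after bleomycin had a correlation of -0.04 across the 818 miRNAs, given as a description, and of 0.15 over the 289 more abundant ones. Of the 44 miRNAs with an unadjusted p under 0.05 after PBS, 21 had the same sign after bleomycin, against 398 of all 818. Of the 15 with the smallest p, 8 had the same sign.

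miR-142a-5p differed by 0.38 after PBS and by -0.09 ± 0.11 (SE) after bleomycin, and miR-150-5p by 0.46 and -0.30 ± 0.15 (SE). let-7f-5p differed by 0.24 after PBS and by -0.12 ± 0.08 (SE) after bleomycin. In miR-145a-3p the difference was -0.29 after PBS and -0.26 ± 0.10 (SE) after bleomycin, and in miR-301b-3p 0.63 and 0.31 ± 0.16 (SE). The myeloid list had a median of 0.31 after PBS and of -0.03 after bleomycin. The genotype by bleomycin interaction, which tests the difference between these differences, had 0 of 818 miRNAs with an adjusted p under 0.05 in limma. The smallest adjusted p was 0.399, and 65 had an unadjusted p under 0.05.

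**Figure D5:**
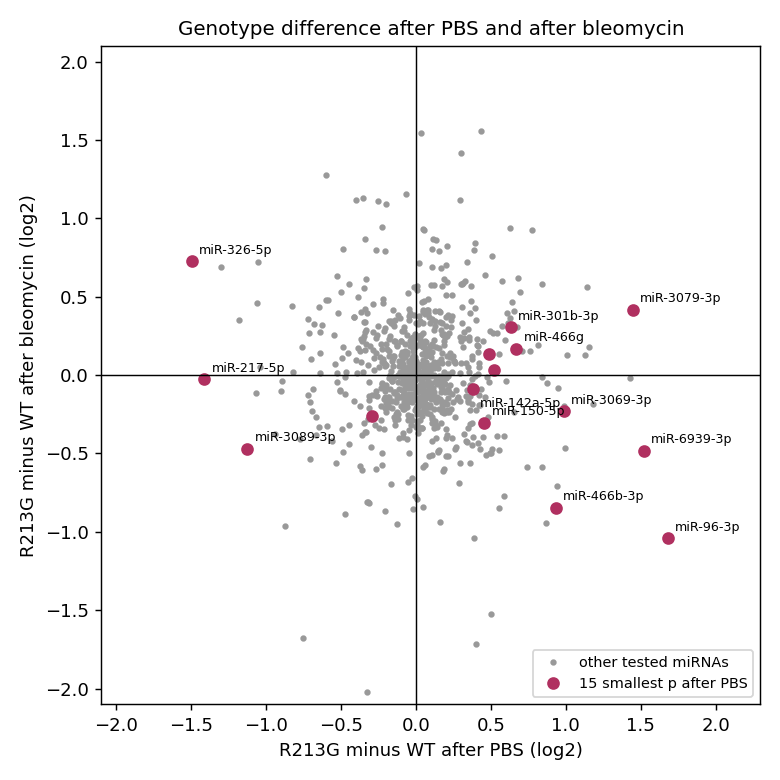
Difference R213G minus WT (log2) after PBS on the horizontal axis and after bleomycin on the vertical axis for the 818 tested miRNAs; larger red points are the 15 with the smallest p after PBS. Of these 15, 8 have the same sign on both axes.

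The labels carry tag numbers. R213G libraries have tags A0745 to A0752 and WT libraries A0777 to A0783, so tag order and genotype cannot be told apart. Within R213G, the tags form 2 runs, A0745 to A0748 and A0749 to A0752, each with 2 PBS and 2 bleomycin libraries. No source used here says what a tag stands for. Between the 2 runs, 2 of 818 miRNAs (0.244%) differed at an adjusted p under 0.05 in limma, and 119 (14.5%) at an unadjusted p under 0.05. Between genotypes after PBS these counts were 0 and 44, and after bleomycin 0 and 97. The counts are not directly comparable. The run comparison used all R213G libraries and a fit with a term for the runs, which the genotype comparisons lacked. Within R213G PBS, deviations from the group mean correlated at 0.09 between replicates 1 and 3 and at 0.13 between replicates 2 and 4, and at -0.57 to -0.53 across the pairs, given as a description over 818 miRNAs. Deviations from the mean of 4 libraries without such structure would correlate at about -0.33.

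miR-28c measured 8.07 and 8.23 in R213G PBS replicates 1 and 3 and 6.67 and 6.76 in replicates 2 and 4, with 7.07, 7.70 and 6.98 in WT. The difference between the runs was 1.29 ± 0.23 (SE), with an adjusted p of 0.0299 in limma. miR-3065-5p measured 7.99 and 7.65 in the first pair and 7.06 and 7.28 in the second. The difference between the runs was 0.72 ± 0.14 (SE), with an adjusted p of 0.0486 in limma. It lies at chr11:120014780-120014801 on the plus strand, opposite to miR-338-3p on the minus strand, whose difference between the runs was 0.06. The mean value of miR-3065-5p over the 7 PBS libraries was 7.57 and that of miR-338-3p 12.07. With any 1 R213G PBS library left out neither miRNA passed (0 called), and without WT PBS replicate 3 there were 7 calls. miR-654-3p had the next smallest p, with 4.19 and 3.75 in the first pair and 0.00 in both libraries of the second. The erythroid list differed by a median of 0.70 between the runs. With R213G replicates 1 and 3 alone its median against WT was 0.70, and with replicates 2 and 4 alone it was -0.52.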

How the data were processed

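Small RNA of whole lung was sequenced, and 1 table of the whole series was used. It holds, as deposited by the authors, log2 values of 1424 mature miRNAs in 15 libraries. Bowtie2 2.3.2, SAMtools 1.9 and edgeR are named in the submitters' processing notes. Genome build, miRBase release and strand setting: not given in the sources used here. From the values, each deposited log2 value is the logarithm of 1 plus a scaled abundance. Its exact unit is not stated: the table's name mentions RPKM. Read counts could not be recovered, so no count test was run and no counting interval is given.

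The deposited fold changes and tests were not used. miRNAs with a linear value above 5 in at least 3 of 15 libraries were kept (818). limma 3.58.1 (R 4.3.3) was fitted to the log2 values with the variance trended on mean value, all 15 libraries in the fit and the 4 groups as its terms. The contrasts were R213G against WT after PBS, the same after bleomycin, and their interaction. A second fit added a term for the 2 runs of R213G tag numbers, and another used the 5p to 3p ratio of 234 hairpins. Benjamini-Hochberg adjustment of the p-values ran over all miRNAs or hairpins tested, and an adjusted p under 0.05 was called. Single values per library were compared by exact permutation (35 splits). Shares are percentages of the summed linear values. The procedure was tested on simulated data. The 15 smallest p-values, the 20 most abundant miRNAs, up to 2 members with the smallest p and the most abundant member of each of 19 lists, 6 miRNAs of the tag fit, 6 hairpins, and 10 further miRNAs were named. The members, lists and tests were chosen with earlier results of these data known. Sequences are from RefSeq and host genes from GENCODE vM21, both on GRCm38. Replicate numbers were not used to pair the samples (see the closing section). Alternatives were leaving out each PBS library, other filters, pseudocount, scalings, no trend, array weights, the 7 PBS libraries alone, a replicate term, the tag term, an adjusted p under 0.1 and, chosen after seeing the data, each pair of R213G PBS tags alone.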

Additional observations from a re-analysis of the deposited data

Results flagged for a closer look

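In 65 sets of 4 R213G PBS values, 4 had 1 library far from the other 3, where chance gives about 1 in 20. miR-100-5p measured 13.71 in replicate 2 and 13.50 to 13.52 in the other 3 R213G libraries. miR-335-3p measured 12.26 in replicate 2 and 12.11 to 12.12 in the others. miR-96-3p, close to the floor, measured 3.05 in replicate 3 and 1.88 to 1.95 in the others. The summed share of the myeloid miRNAs was 0.311% in replicate 1 and 0.348% to 0.354% in the others. No genotype difference after PBS was called different from that after bleomycin (0 of 818 at an adjusted p under 0.05 in limma, 65 at an unadjusted p under 0.05). Groups of 3 were not checked in this way.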

How the results depend on the processing

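No miRNA was called between genotypes after PBS under any alternative run, and the smallest adjusted p over them was 0.162, without WT PBS replicate 3. The number at an unadjusted limma p under 0.05, 44 of 818 as reported, ranged from 35 to 81 with 1 library left out. It was 79 of 1424 tested with no filter and 22 of 469 tested with values above 50 required. The abundance ranking was checked only with 1 PBS library left out and with equal library medians. The 20 most abundant miRNAs were the same in each, and the share of miR-143-3p stayed between 14.3% and 14.7%. Equal medians rescale a library as a whole, so they could hardly change its shares. Calls between the R213G tag runs, 2 as reported, ranged from 0 to 7 with 1 library left out. They were 1 with no filter, with equal medians and with equal sums, and 0 with quantile normalization and without the trend; the cause was not tested. No arm ratio was called as reported, and 0 to 1 was with 1 library left out: miR-449a without WT PBS replicate 2 and miR-3069 without R213G PBS replicate 1.

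Some small differences changed sign. With quantile normalization miR-21a-5p was 0.0055, miR-34a-5p -0.014 and miR-126a-3p 0. With equal sums miR-155-5p was 0.015, miR-200c-3p 0.0057 and miR-30d-5p 0.0033. With array weights miR-21a-5p was 0.076, miR-155-5p 0.12 and miR-126a-3p -0.017. With tags A0747 and A0748 alone miR-155-5p was 0.075, miR-29b-3p 0.068 and miR-30d-5p 0.0067. With tags A0751 and A0752 alone miR-144-5p was -0.52, miR-144-3p -0.19 and miR-451a -0.68. With 1 library left out the ranges that cross 0 were -0.089 to 0.16 for miR-126a-3p, -1.50 to 0.0029 for miR-133b-3p, -0.11 to 0.47 for miR-144-5p, -0.068 to 0.25 for miR-146a-5p, -1.12 to 0.16 for miR-147-3p, -0.19 to 0.28 for miR-155-5p, -0.041 to 0.019 for miR-200c-3p, -0.040 to 0.94 for miR-205-5p, -0.14 to 0.19 for miR-21a-5p, -0.016 to 0.17 for miR-23a-3p, -0.019 to 0.29 for miR-28a-5p, -0.25 to 0.027 for miR-30a-5p, -0.16 to 0.093 for miR-30d-5p, -0.021 to 0.085 for miR-34a-5p, -0.36 to 0.075 for miR-409-3p and -0.27 to 0.40 for miR-451a; the cause was not tested. No setting changed the sign of any of the 15 miRNAs with the smallest p. These were chosen by p in the same libraries, so a kept sign is no separate support.

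Nothing in the labels says that replicate numbers pair the samples, and they were not used as pairs. Deviations from the group means correlated at -0.08, 0.23 and 0.03 between same-numbered WT and R213G libraries. Between differently numbered ones they correlated at -0.17 to 0.20. With so few libraries these values cannot settle whether the numbers pair the samples. With the replicate number as a block 0 miRNAs were called and 47 had an unadjusted p under 0.05, and miR-200c-3p was 0.0021 and miR-30d-5p 0.018. edgeR and DESeq2 were not run, since the table holds no counts. With 3 against 4 libraries and unknown depth, the unadjusted interval of a miRNA reached in the median 0.51 to either side. This width is not a detection limit, since a call needed an adjusted p under 0.05 over all miRNAs tested. Differences larger than 0.51 could therefore also go uncalled. miR-217-5p, near the floor, differed by -1.41 and had an adjusted p of 0.622 in limma.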

Other observations

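Values of 2 further groups of miRNAs, gathered by name after the results had been seen, are given without a test of the group. The miR-297, miR-466, miR-467 and miR-669 families of the Sfmbt2 intron had 39 tested members, of which 33 were higher in R213G after PBS, with a median difference of 0.37. At an unadjusted limma p under 0.05 there were 9 of them, all higher, beside 31 higher (3.79%) of all 818, and none had an adjusted p under 0.05. Copies within these families are known to be near-identical, so the members were not taken as separate measurements. After bleomycin 30 of the 39 were higher, with a median of 0.23. Between the R213G tag runs their median difference was 0.00.

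An X-linked cluster of miRNAs known from germ cells was listed near the floor. All 7 tested members were higher in R213G after PBS, with a median of 0.69, beside 445 of all 818. All 7 were lower in tags A0745 to A0748 than in tags A0749 to A0752, with a median of -1.19, beside 412 of all 818. The members share a cluster and were not taken as separate measurements. miR-871-3p measured 0.18, 1.28 and 2.61 in WT PBS and 0.89, 3.99, 0.08 and 3.24 in R213G PBS replicates 1 to 4. miR-881-3p was listed at 0.00 in the 3 WT PBS libraries and at 0.94, 1.91, 0.02 and 1.73 in the R213G PBS libraries. The high values of both lay in R213G replicates 2 and 4.

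Of the miRNAs that differed most between the R213G tag runs, let-7j and miR-3962 are close in sequence to abundant let-7 members. let-7j matches let-7i-5p with 1 mismatch over 22 bases, and miR-3962 matches let-7g-5p with 1 mismatch over 20 aligned bases. RefSeq gives these sequences, with the seed in capitals.
let-7j: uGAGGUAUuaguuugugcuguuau
let-7i-5p: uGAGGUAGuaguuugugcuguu
miR-3962: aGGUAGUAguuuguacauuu
let-7g-5p: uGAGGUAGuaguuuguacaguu
let-7j measured 6.97 and 6.995 in R213G PBS replicates 1 and 3 and 6.28 and 6.29 in replicates 2 and 4, and the difference between the runs was 1.01. For let-7i-5p that difference was 0.04. miR-3962 differed by 0.89 between the runs and let-7g-5p by 0.12. Neither let-7j nor miR-3962 passed the test (adjusted p = 0.103 for both in limma).

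The 8 tested miRNAs of Htr2c introns had a median genotype difference of 0.20 after PBS and of 0.66 after bleomycin. After bleomycin all 8 were higher and 7 had an unadjusted limma p under 0.05, beside 97 (11.9%) of all 818. The 8 share a host gene and include both arms of miR-1298, miR-448 and miR-1264, so they are not separate measurements. miR-1298-5p, the most abundant of them, differed by 0.21 after PBS and by 0.59 after bleomycin, and the interaction was not called for any of them.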
